A study of Homo sapiens with 4 samples.

Results

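The genes described here encode the subunits of the mitochondrial respiratory chain and of the ATP synthase that it drives. They were chosen by name. The set holds each gene whose symbol in the array annotation begins with NDUFA, NDUFB, NDUFC, NDUFS, NDUFV, UQCR, COX4 to COX8 or ATP5, together with the SDH genes and CYC1, and leaves out the NDUFAF assembly factors. This gave 86 symbols on 115 probes, of which 72 symbols had a probe detected above the negative controls (detection p under 0.01) on at least 1 array, among 10457 detected genes in all. The detected set comprised 30 of 36 complex I genes, 3 of 3 for complex II, 9 of 9 for complex III, 11 of 17 for complex IV, 17 of 18 for the ATP synthase and 2 of 3 noncoding entries that share a prefix.

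The RNA came from H9, an established human embryonic stem cell line, cultured on matrigel in E8, a defined medium, and collected on day 2. Cultures above 90% confluence were called high density and those below 70% low density, and each density was kept either in plain E8 (control) or in E8 with 20 mM of extra sodium bicarbonate. The study thus had 4 samples, 1 for each combination of density and medium, each hybridised to an Illumina bead array. With 1 array in a group there is no spread between replicates, so differences between arrays are given as values, with no test, and each one compares 2 RNA samples rather than 2 conditions. H9 is a single line, and the labels do not say how many dishes went into a sample.

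Complex I takes electrons from NADH and complex II takes them from succinate, and both pass them to ubiquinone. Complex III hands them on to cytochrome c and complex IV to oxygen, and the proton gradient built on the way turns the rotor of the ATP synthase. Complex II is built wholly from nuclear genes, and each of the other complexes combines nuclear-encoded subunits with some encoded in mitochondrial DNA. Primed pluripotent stem cells rely heavily on glycolysis while they keep an active respiratory chain. None of the 13 mitochondrially encoded subunits had a probe named in the annotation, so only the nuclear-encoded share of the chain is described.

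Of the 8 genes measured at least 1.5-fold apart in a comparison below, 7 had a promoter sequence to search. Motif matches are shown for 5 of them, because nuclear respiratory genes are known for a small vocabulary of promoter motifs that act near the start site. Sequences are from RefSeq on GRCh38.p14 and are read 5′ to 3′ on the gene's own strand. The 3 upstream stretches of 120 bases that hold an ETS core, the letters bound by GABP and its relatives, have that core in capitals (CCGGAAG or its reverse complement CTTCCGG). They lie at chr1:46303578-46303697 on the plus strand for UQCRH, chr19:1605463-1605582 on the minus strand for UQCR11 and chr19:35648203-35648322 on the plus strand for COX6B1. The sites of 24 bases just past the start of NDUFA6 (chr22:42090732-42090755, minus strand) and NDUFA7 (chr19:8321346-8321369, minus strand) have the YY1 letters AAGATGG in capitals. The 120 bases upstream of NDUFA6, NDUFA7, NDUFA11 and NDUFV1 held none of the searched letters and are not printed. NDUFA6 held the NRF1 letters further upstream, and NDUFA11 and NDUFV1 held none in the whole window searched.
UQCRH: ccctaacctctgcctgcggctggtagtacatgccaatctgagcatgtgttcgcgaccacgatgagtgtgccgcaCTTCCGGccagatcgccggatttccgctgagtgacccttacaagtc
UQCR11: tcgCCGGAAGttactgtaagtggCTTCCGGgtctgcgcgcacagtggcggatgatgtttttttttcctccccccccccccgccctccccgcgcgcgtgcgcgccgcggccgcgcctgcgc
COX6B1: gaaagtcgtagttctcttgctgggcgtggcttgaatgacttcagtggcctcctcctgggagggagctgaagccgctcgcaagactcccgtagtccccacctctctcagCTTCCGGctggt
NDUFA6: gctttggcAAGATGGcggggagcg
NDUFA7: gcggacggAAGATGGcgtccgcca

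At least 1 promoter window, from 250 bases before to 50 bases after the start, was found for 58 of the 72 detected genes. Both strands were searched, and a gene counted if any of its windows held the letters. The NRF1 letters GCATGCGC were found for 19.0% of these genes against 3.68% of all 27305 genes with a window. Those 27305 genes were taken whether detected here or not, and the share among detected genes was not computed. The ETS core was in 31.0% against 12.2%, the YY1 letters in 29.3% against 7.11%, and any of the motifs in 60.3% against 20.7%. The ETS and YY1 letters can share AAG where they meet, so a window can count for both. These matches describe letters in a window, not sites that were shown to be bound. With bicarbonate at high density the median log2 difference was -0.18 for 34 genes with any match and -0.17 for 23 without. For density with bicarbonate these medians were -0.06 and -0.13. For density in control the median was 0.01 for 18 genes with the ETS core and 0.12 for 39 without. In that comparison it was 0.11 for 16 genes with the YY1 letters and 0.02 for 41 without. Whether genes with and without a match differ was not tested.

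Values are log2 intensities after background correction and quantile normalization, and a difference of 0.58 on that scale is 1.5-fold, the size used below to count a gene as apart. A gene is represented by its brightest detected probe. Before normalization the high-density bicarbonate array was the dimmest, with a median intensity of 117 against 154 to 167 on the others and a 90th percentile of 626 against 798 to 958, while 29.9% to 32.2% of the probes were detected on each array. Of 15 markers of pluripotent cells, 13 or 14 were detected on each array, and none of the mesoderm or trophoblast markers was detected. Of 6 endoderm markers, FOXA2 and AFP were detected, on the low-density arrays only, and the others on no array. Of 12 markers of fibroblast-like cells 7 were detected, 6 of them on the low-density bicarbonate array and 7 on each other array. Those 7 averaged 9.09 and 9.23 at high density against 8.44 and 8.38 at low density, in control and bicarbonate respectively. The part of these markers in the differences below was not tested. In such bulk RNA, fewer cells of a type and less RNA per cell cannot be told apart.

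Most of the chain was detected clearly and on every array. Of the 72 detected genes, 70 passed on all 4 arrays. The brightest probes were those for ATP5F1B, the catalytic beta subunit of the ATP synthase (mean 14.23), COX4I1 (13.59), ATP5F1A, the alpha subunit (13.58), UQCRHL (13.53) and ATP5ME (13.40). The dimmest were those for NDUFA5 (6.24), ATP5MC3 (6.50), UQCRB (6.67), ATP5F1E (7.68) and UQCR11 (7.75), where the lowest detected signal on an array was 6.31 to 6.53. Brightness depends on the probe as well as on the transcript, so these levels do not rank the genes.

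The 14 genes without a detected probe included the whole set of tissue-specific complex IV isoforms on the array. COX4I2, COX6A2, COX6B2, COX7A1, COX7B2 and COX8C, the forms known from lung, muscle or testis, were all below detection, whereas their ubiquitous counterparts COX4I1, COX6A1, COX6B1, COX7A2, COX7B and COX8A were detected on all 4 arrays. The others without a detected probe were NDUFB1, NDUFB4, NDUFC2, NDUFS1, NDUFS6, NDUFV3, ATP5MK and the antisense RNA NDUFB2-AS1. Several of these are constitutive subunits, among them NDUFS1, the large iron-sulfur subunit of complex I, so a missed probe does not mean a missing transcript. At the edge of detection, the lowest p was 0.0130 for NDUFB1 and NDUFS1, just outside, and 0.0065 for NDUFA5, just inside. SDHB and UQCRFS1 were not analysed here. COXFA4, the complex IV subunit once called NDUFA4 and outside the naming rule, was detected at 13.81 and 13.77 at high density and 13.91 and 13.82 at low density, and its hypoxia-associated relative COXFA4L2 was not detected.

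As a group, the chain genes differed little between arrays. The range over the 4 arrays had a median of 0.35 for the 70 genes detected throughout and of 0.53 for all 8554 genes detected throughout, or 0.42 for those with a mean of at least 10. Of the same 70 genes, 33 (47.1%) were highest on the high-density control, where 25.8% of all genes were. On the high-density bicarbonate array 30 of 70 (42.9%) were lowest, where 23.2% of all genes were. By complex, the high-density control was highest for 14 of 29 complex I genes, 1 of 3 of complex II, 4 of 9 of complex III, 8 of 11 of complex IV and 5 of 16 of the ATP synthase.

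**Figure D1:**
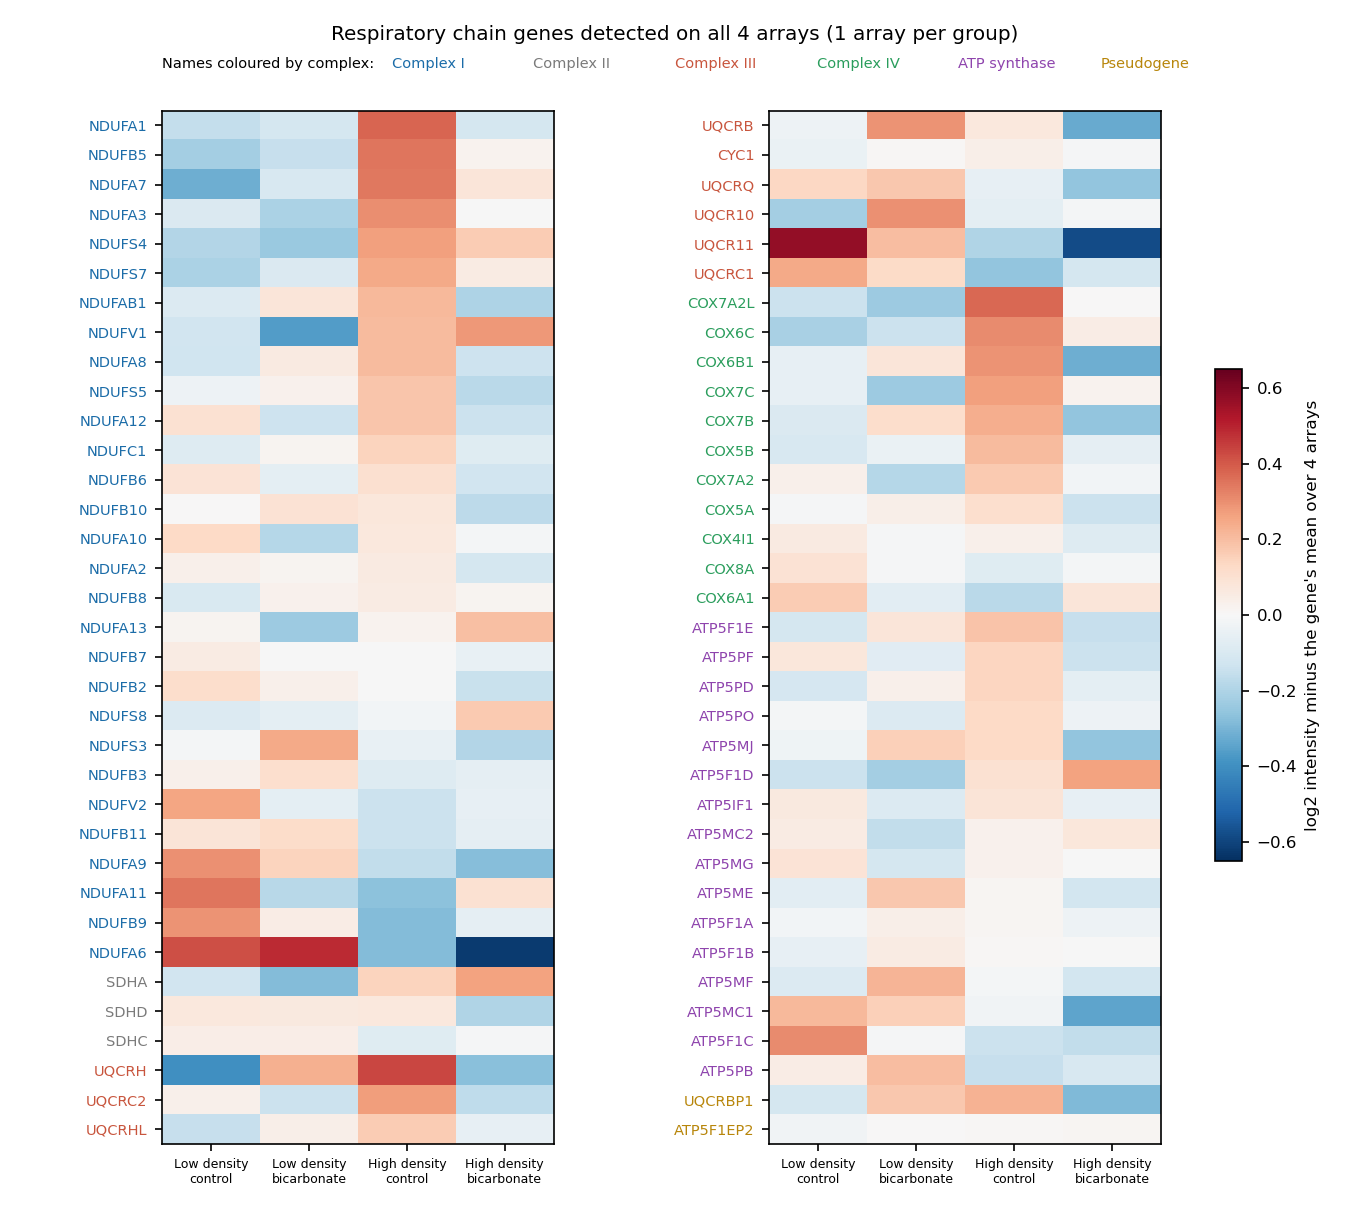
Each row is a respiratory chain gene detected on all 4 arrays and each column an array; colour gives log2 intensity minus the gene's mean over the arrays, and name colours give the complex. Red cells gather in the high-density control column, which is the highest for 33 of the 70 genes.

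High and low density were compared first in control medium. The median log2 difference of the chain genes was 0.08, against 0.01 for all 8936 measured genes, and 47 of 70 were above 0. At least 1.5-fold higher at high density were 2 members, UQCRH and NDUFA7, where 12% of all genes were, and 3 were as far lower, UQCR11, NDUFA6 and NDUFA11, where 11.9% of all genes were. The shares of the members past 1.5-fold were thus 2.86% and 4.29%, below those of all genes, and 41 of 70 (58.6%) differed by less than 0.25 against 41.0% of all genes. Part of this goes with brightness: of the 2395 genes with a mean of at least 10, a level chosen after the values were seen, 49.5% differed by less than 0.25, against 37 of 59 members (62.7%) as bright.

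UQCRH, the acidic hinge subunit that helps complex III meet cytochrome c, stood at 11.01 on the low-density control, 11.65 on low-density bicarbonate, 11.85 on the high-density control and 11.14 on high-density bicarbonate. The order thus turned over with the medium, high density being above low density in control and below it in bicarbonate. Its density difference in control medium was 0.83. The other detected UQCRH probe read 10.54, 10.59, 10.95 and 10.48 on the same arrays, a difference of 0.41, and the near-identical retrocopy UQCRHL gave 0.32. Signal from UQCRH and UQCRHL cannot be told apart with certainty.

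NDUFA7, an accessory subunit of the matrix arm of complex I, stood at 9.19 and 9.41 at low density and at 9.85 and 9.59 at high density, in control and bicarbonate respectively. Both high-density arrays were above both low-density arrays. UQCR11, a small membrane subunit of complex III, ran the other way, at 8.33 and 7.96 at low density and 7.56 and 7.17 at high density. NDUFA6, an accessory subunit of the LYR family that binds the acyl carrier protein, stood at 9.52 and 9.59 at low density and at 8.82 and 8.48 at high density. NDUFA11, a membrane-arm subunit, stood highest on the low-density control at 11.10, with 10.57 on low-density bicarbonate, 10.49 on the high-density control and 10.85 on high-density bicarbonate, so its density groups overlapped. Without background correction the differences of UQCR11 (-0.52), NDUFA6 (-0.58), NDUFA11 (-0.58) and NDUFA7 (0.57) in control medium all came in under 1.5-fold.

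Complex IV sat highest of the complexes in this comparison, with a median of 0.31 and 8 of 11 genes above 0. COX6C (0.52), COX7A2L (0.51), a factor that joins complexes III and IV into supercomplexes, and COX6B1 (0.34) were at the upper end, and COX6A1 (-0.34), COX8A (-0.17) and COX4I1 (-0.02) were below 0. The medians of the other complexes were 0.07 for complex I, 0.00 for complex II, 0.10 for complex III and 0.06 for the ATP synthase. Within complex I the members spread from NDUFA7, NDUFB5 (0.57) and NDUFA1 (0.53) to NDUFA6, NDUFB9 (-0.57) and NDUFA9 (-0.46). The 5 measured core subunits, which are conserved from bacteria, were split in the same way: NDUFS7 (0.45), NDUFV1 (0.33) and NDUFS8 (0.08) were above 0, and NDUFS3 (-0.04) and NDUFV2 (-0.39) below. In complex III the core proteins differed in sign, at 0.24 for UQCRC2 and -0.50 for UQCRC1, and CYC1, which carries the haem of cytochrome c1, was at 0.08.

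With bicarbonate the density comparison gave a median of -0.07 for the chain genes and -0.03 for all genes, and 23 of 70 were above 0. Here 1 member was at least 1.5-fold higher at high density, NDUFV1 at 0.65, where 11.5% of all genes were. Lower by as much were 3 members, NDUFA6 (-1.11), UQCR11 (-0.78) and UQCRB (-0.62), where 12% of all genes were. NDUFV1, the flavin-bearing subunit where NADH is oxidised, stood at 10.29 and 10.05 at low density and at 10.62 and 10.70 at high density, both above. UQCRB, a complex III subunit beside the ubiquinone site, lay close to the detection limit, at 6.63 and 6.96 at low density and 6.74 and 6.34 at high density, and its difference came to -0.55 in the authors' deposited log2 values. NDUFA6 and UQCR11 were at least 1.5-fold lower at high density in both media, 2 of 70 where 5.17% of all genes were, and no member was as far higher in both, where 4.93% of all genes were.

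Complex III stood lowest in this medium. All 9 of its genes were below 0, with a median of -0.31, and its 6 small subunits, UQCRHL included, had a median of -0.47, with UQCRH at -0.50, UQCRQ at -0.43 and UQCR10 at -0.31. The core proteins UQCRC1 (-0.24) and UQCRC2 (-0.02) and CYC1 (-0.02) lay nearer to 0. The medians were -0.05 for complex I, -0.05 for complex II, -0.01 for complex IV and -0.08 for the ATP synthase. SDHA, the flavoprotein of complex II that oxidises succinate, was at 0.55, and its membrane anchors SDHC and SDHD were at -0.05 and -0.26. ATP5F1D, the delta subunit of the ATP synthase, was at 0.49 by its brightest probe and at -0.69 by its other detected probe. ATP5MC1, a gene for the rotor's c ring, was at -0.50.

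The density comparisons in control and in bicarbonate share no array. Across the 70 genes they had a Pearson correlation of 0.34, against 0.58 across all 8554 genes, and 34 of 70 members (48.6%) kept their sign against 67.7% of all genes. Genes are not independent replicates, and in each medium the members had a smaller spread (SD 0.32 and 0.30) than all genes (0.54 and 0.53) or genes with a mean of at least 10 (0.42 and 0.45).

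**Figure D2:**
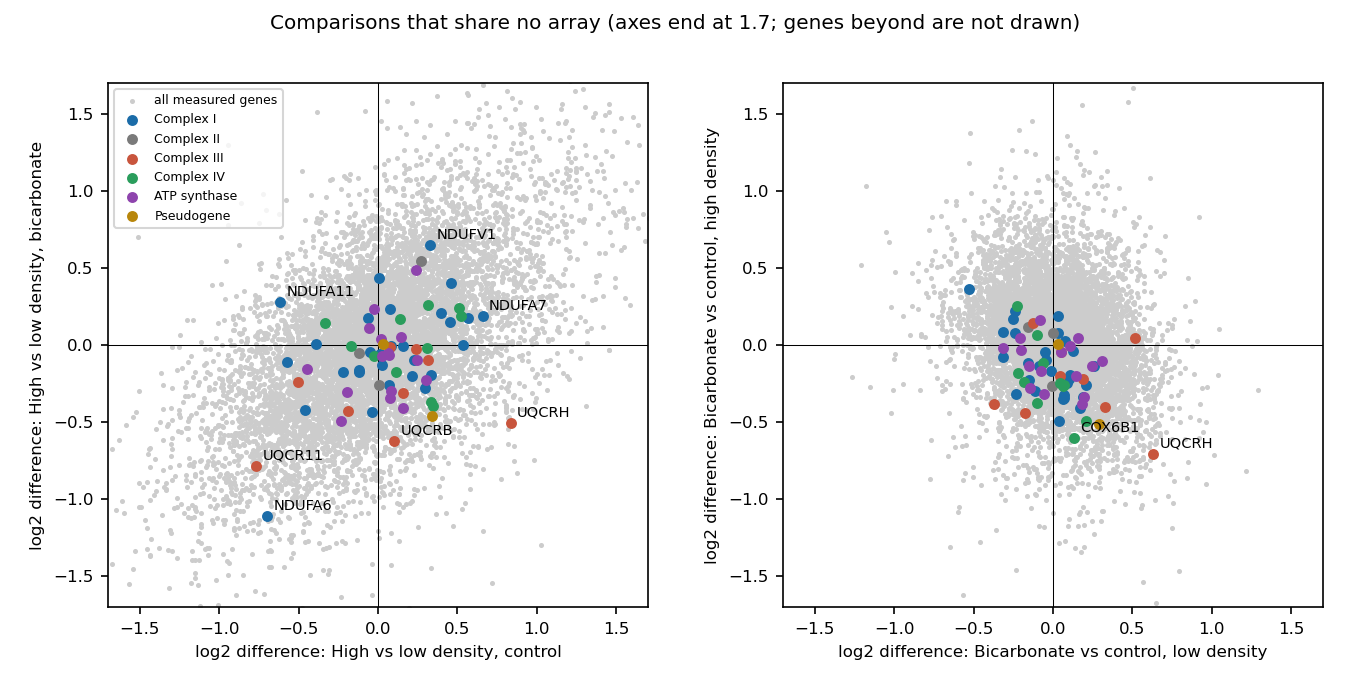
Each point is a gene, with its log2 difference in a pair of comparisons that share no array: density in control against density in bicarbonate (left), and bicarbonate at low against bicarbonate at high density (right). Members at least 1.5-fold apart on an axis are named; NDUFA6 and UQCR11 lie low on both axes at left, and UQCRH lies in the lower right of both panels.

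Bicarbonate was compared with control at each density. At high density the chain genes were shifted to lower values, with a median of -0.17 against 0.02 for all 9188 measured genes and 0.00 for the genes with a mean of at least 10, and 52 of 70 were below 0. The shift was made of small differences: 2 members were at least 1.5-fold lower, UQCRH (-0.71) and COX6B1 (-0.61), where 4.47% of all genes were, and none was as far higher, where 4.49% of all genes were. COX6B1, a complex IV subunit on the intermembrane side, stood at 8.97 on the high-density control and 8.36 with bicarbonate, with 8.63 and 8.76 on the low-density arrays between them. Its difference came in under 1.5-fold in the authors' deposited log2 values (-0.57) and without background correction (-0.47). The next members were the pseudogene UQCRBP1 (-0.51), NDUFA1 (-0.49), COX7B (-0.49) and UQCRC2 (-0.44), and the highest were NDUFA11 (0.36), COX6A1 (0.25), NDUFB9 (0.22), NDUFS8 (0.18), NDUFA13 (0.17) and ATP5F1D (0.16).

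The shift was seen in most complexes. The medians were -0.24 for complex IV, with 9 of 11 genes below 0, -0.22 for complex III, with 7 of 9, -0.14 for complex I, with 21 of 29, and -0.12 for the ATP synthase, with 13 of 16. Complex II, with 3 genes, had a median of 0.08, the value of SDHC by its brightest probe. The other detected probe of SDHC read -0.64. SDHA read 0.12 by its brightest probe and -0.12 by its other, and SDHD read -0.27. The sign of the complex II median thus rests on the choice of probe. Within complex I the 24 accessory subunits had a median of -0.20 with 19 below 0, and the 5 core subunits had a median of 0.08 with 2 below 0, all within 0.25 of 0. The F1 part of the ATP synthase, its catalytic head with the central shaft, lay near 0 for ATP5F1A (-0.05), ATP5F1B (-0.01) and ATP5F1C (-0.02). ATP5F1E, at -0.33, and ATP5F1D lay apart from these. The peripheral stalk of the ATP synthase was lower by the brightest probes, with ATP5PF at -0.28, ATP5PD at -0.20, ATP5PO at -0.17 and ATP5PB at 0.05. Other detected probes of the stalk read 0.05 for ATP5PD, -0.29 for ATP5PB and -0.22 and -0.50 for ATP5PF. In the F1 part, other probes read -0.12 for ATP5F1A and 0.02 for ATP5F1D. ATP5IF1, the inhibitor that blocks reverse rotation, was at -0.14.

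In the same comparison the median was -0.05 for 76 mitochondrial and -0.06 for 71 cytosolic ribosomal protein genes. The lists read further below had medians from -0.26, for 8 carriers around the chain, to 0.13, for 6 hypoxia genes. Whether any of these differ from the chain was not tested. The shift went with the array that was dimmest before normalization, and its part in the result was not tested. Set to equal medians instead of equal quantiles, the arrays gave a median of -0.44 for the chain genes, -0.14 for all genes and -0.27 for the genes with a mean of at least 10, and 15 members were then at least 1.5-fold lower. Of all genes, that scaling put 225 past 1.5-fold upwards and 804 downwards, in place of 413 and 411.

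At low density bicarbonate gave a median of 0.03, against 0.03 for all 8973 measured genes, with 38 of 71 members above 0; the median was -0.04 with equal medians. UQCRH was the 1 member at least 1.5-fold higher (0.63), where 2.24% of all genes were, and none was as far lower, where 1.48% of all genes were. The other UQCRH probe showed 0.06. The values nearest to it were UQCR10 (0.51), ATP5MC3 (0.43), UQCRB (0.33) and ATP5MF (0.31), and at the other end stood NDUFA11 (-0.53), UQCR11 (-0.37), NDUFA10 (-0.32), NDUFV2 (-0.32) and ATP5F1C (-0.31), the gamma subunit that forms the central shaft. The complex medians lay between -0.06 for complex IV and 0.05 for complex III and the ATP synthase.

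**Figure D3:**
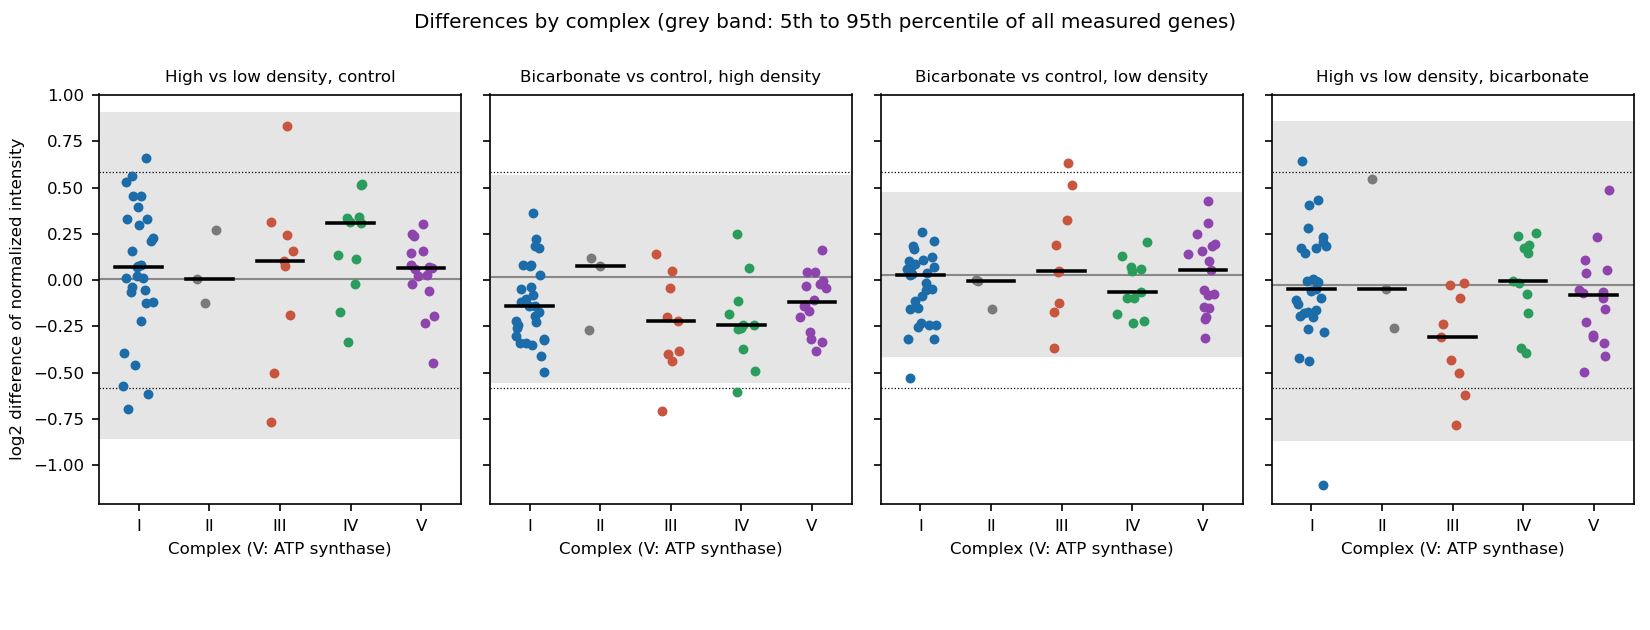
Log2 differences of the measured members by complex in the 4 comparisons; each point is a gene, black bars are medians, the grey line is the median of all measured genes and dotted lines mark 1.5-fold. Complex IV has its highest median (0.31) for density in control, complex III its lowest (-0.31) for density with bicarbonate, and most points lie below 0 for bicarbonate at high density.

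The bicarbonate differences at high and at low density, which share no array, had a correlation of -0.46 across the 70 members, -0.24 across all genes and -0.35 across the genes with a mean of at least 10. The sign was the same at both densities for 29 members (41.4%), close to the 40.8% of all genes. UQCRH alone among the members was at least 1.5-fold lower with bicarbonate at high density and as far higher at low density, where 0.339% of all genes were. Taken as a difference of differences, high density minus low, the chain genes had a median of -0.12 against 0.00 for all genes. At least 1.5-fold below 0 were 5 members, UQCRH (-1.34), UQCRBP1 (-0.80), COX6B1 (-0.74), UQCRB (-0.72) and COX7B (-0.70), where 10.7% of all genes were, and 1 was as far above, NDUFA11 (0.89), where 10.4% were. UQCRB and its pseudogene UQCRBP1 are near-identical, so their values are not separate evidence.

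**Figure D4:**
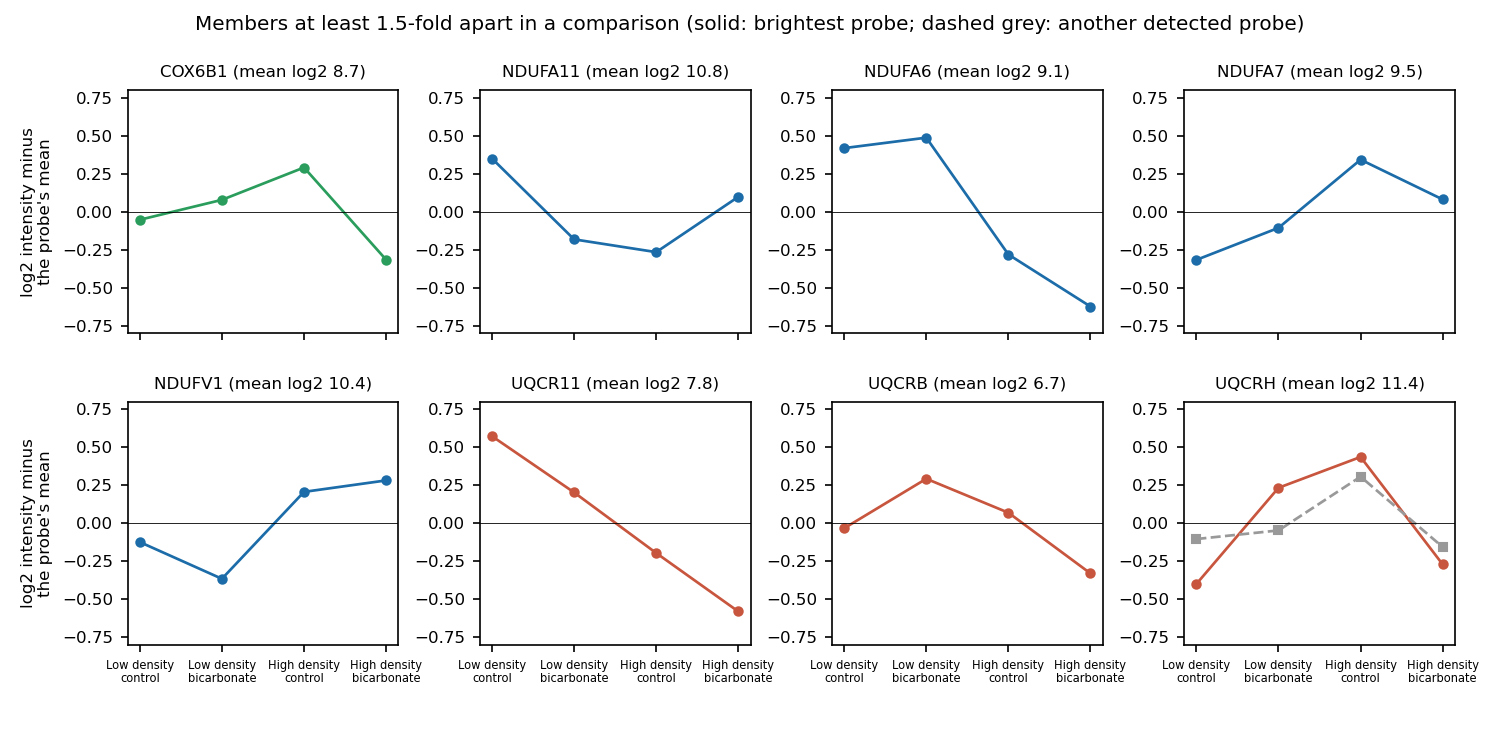
The 8 members at least 1.5-fold apart in a comparison; points are log2 intensity minus the probe's own mean over the 4 arrays, solid lines join the brightest probe and the dashed grey line another detected probe. NDUFA6 and UQCR11 are lower on both high-density arrays, and both UQCRH probes peak on the high-density control.

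Where a gene had more than 1 detected probe, the probes served as a check within the same RNA. For 16 to 18 members measured by a pair of probes, the brightest probes disagreed by a median of 0.20 for density in control, 0.24 for bicarbonate at high density, 0.16 for bicarbonate at low density and 0.17 for density with bicarbonate. These gaps are as large as the median shift with bicarbonate at high density, so single genes with small differences are not resolved. For density in control the 2 probes shared a sign for 9 of 17 members (correlation 0.18) and 1259 of 1884 genes (0.55). For bicarbonate at high density they did for 8 of 16 (0.13) and 1213 of 1945 (0.44). At low density they did for 12 of 18 (0.37) and 1008 of 1860 (0.13). For density with bicarbonate they did for 11 of 17 (0.30) and 1328 of 1828 (0.67). The sign of a member read by 1 probe is thus uncertain. ATP5F1D read 0.24 for density in control by its bright probe (10.95 and 11.19) and -0.67 by the dim one (8.63 and 7.96). SDHC read -0.12 by its bright probe and 0.51 by the dim one, which stood at 8.65 on the low-density control and 9.16 on the high-density control. ATP5IF1 read 0.02 by its bright probe and -0.62 by one near the detection limit.

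Pairs of paralogs were read beside each other by their differences. The c ring of the ATP synthase is built from an identical mature protein encoded by ATP5MC1, ATP5MC2 and ATP5MC3. With bicarbonate at high density ATP5MC1 was at -0.32 and ATP5MC2 at 0.05, and for density with bicarbonate they were at -0.50 and 0.23. ATP5MC3 was detected on the low-density arrays only, at 6.56 in control and 6.99 with bicarbonate, and was at least 1.60-fold lower on the high-density bicarbonate array than on the low-density one, since it was not well above background at high density and only a bound can be given. NDUFA5, an accessory complex I subunit, was detected only on the high-density control (6.55) and the low-density bicarbonate array (6.64), close to the limit on both. COX7A2 and its relative COX7A2L were both highest on the high-density control, at 12.03 and 11.31. By their brightest probes the alpha and beta subunits, ATP5F1A and ATP5F1B, varied least among the genes of the F1 part. All their differences in the 4 comparisons were then within 0.11 of 0. The other ATP5F1A probe read -0.12 for bicarbonate at high density.

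Genes that build or feed the chain were read from lists. Of 14 measured complex I assembly factors, none was 1.5-fold apart in either bicarbonate comparison or for density in control, and NDUFAF6 (-0.81) was lower for density with bicarbonate. Among 4 complex II assembly factors, SDHAF4 was higher at high density in control (1.38) and in bicarbonate (1.13), and SDHAF2 lower (-0.74 and -0.66). Counts on these lists are small and stand beside the shares of all genes past 1.5-fold at high density, 12% higher and 11.9% lower in control and 11.5% higher and 12% lower with bicarbonate. Of 21 complex IV assembly factors, 1 was higher and 3 were lower for density with bicarbonate, with COA3 at -0.95 and PET100 at -0.91, and CMC1 was higher at 0.76. With bicarbonate at high density, PET100 was lower (-0.67), where 4.47% of all genes were, and COA8 higher (0.62), where 4.49% were. Of 7 complex III factors, UQCC3 was lower for density in control (-0.63) and BCS1L, the chaperone that inserts the Rieske protein, for density with bicarbonate (-0.84). None of 3 measured ATP synthase assembly factors was 1.5-fold apart, and ATPAF1 was nearest (-0.54 for density in control).

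Of 11 genes of coenzyme Q synthesis, 2 were higher and 1 lower at high density in each medium. Beside this and the density counts that follow stand the shares of all genes. They were 12% higher and 11.9% lower in control, and 11.5% and 12% with bicarbonate. PDSS1, which starts the isoprenoid tail, was the lower one at -1.11 in control and -1.18 in bicarbonate, and COQ8A (0.87 in control) and COQ5 (0.83 in bicarbonate) were among the higher ones. Of 12 genes of the tricarboxylic acid cycle, IDH3A was lower at high density in control (-1.20), and SUCLG2 (1.01) and IDH2 (0.998) were higher at high density in bicarbonate. Among carriers around the chain, of which 8 or 9 were measured, ETFDH was lower for density with bicarbonate (-0.69). CYCS, which encodes cytochrome c, was detected on the low-density arrays only, at 7.03 in control and 7.44 with bicarbonate. At high density CYCS read 5.79 and 5.97, below detection, so it was not measured for density and no bound was computed. Of the regulators of nuclear respiratory genes, 15 were measured in control and 13 in bicarbonate. In each medium 1 was higher and 2 were lower at high density. POLG, the mitochondrial DNA polymerase, was at 0.70 and GABPB1 at -0.69 in control. TFAM, which packages mitochondrial DNA, was at -0.65 in bicarbonate.

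Genes known to switch respiration under hypoxia formed the last list. Of its 6 measured genes, high density exceeded low density by 1.5-fold for 3 in each medium (12% of all genes in control, 11.5% with bicarbonate). HIGD1A was lower at high density with bicarbonate, at -0.98. HIGD1A, COA8 and CYCS were named after their values were seen. BNIP3, a mitophagy receptor, stood at 9.92 and 9.94 at low density and at 11.35 and 12.47 at high density, in control and bicarbonate, so that both high-density arrays were above both low-density arrays. FAM162A was higher by 1.71 in control and 0.82 in bicarbonate, and BNIP3L by 0.92 and 1.38. With bicarbonate at low density 2 of the 6 were at least 1.5-fold higher, FAM162A (0.91) and HIGD1A (0.64), where 2.24% of all genes were. With bicarbonate at high density 1 was, BNIP3 (1.12), where 4.49% of all genes were. None was as far lower at either density, where 1.48% of all genes were at low and 4.47% at high density. The isoform COX4I2, which belongs to the same known response, was below detection on every array.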

How the data were processed

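Total RNA of H9 cells was labelled as biotinylated cRNA and hybridised to Illumina bead arrays, per the labels' protocols; groups came from sample titles, with 1 array in each. The authors deposited unnormalized probe intensities, each with a detection p-value, and log2 values of the same arrays, whose background and normalization steps were not given in the sources used here. Scanner settings were not given either. Each array's log2 values ranked the 47293 probes as its intensities did.

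From the deposited intensities, normexp background correction, with negative controls inferred from the detection p-values, an offset of 16 and quantile normalization were run by the neqc function (limma 3.58.1, R 4.3.3). The number of arrays limits the precision. Of the probes, 30098 had 1 symbol in GEO's platform annotation, 8 had several and 17187 none. A gene's brightest probe with detection p under 0.01 on at least 1 array stood for it, and the gene was measured in a comparison if detected on every array compared. Coding genes and near-identical pseudogenes cannot be told apart by these probes with certainty.

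The 4 comparisons and the difference of bicarbonate differences were computed for all genes, as differences of log2 values without tests. Members were named if among the 6 highest or lowest of a comparison, 1.5-fold apart, core, complex II or paralog members, brightest or dimmest, probe-discordant or undetected; from each other list the 3 with the largest differences could be named. The members, lists and thresholds were chosen with earlier results of these data known. The steps were tested on simulated arrays, and 8 alternatives were tried. Promoter letters were searched with Python 3.11.15 in RefSeq windows (GRCh38.p14).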

Additional observations from a re-analysis of the deposited data

Results flagged for a closer look

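UQCRH was lower with bicarbonate at high density (-0.71) and higher with bicarbonate at low density (0.63), a difference of differences of -1.34. It drew notice because its bicarbonate differences ran in opposite directions at the 2 densities and both passed 1.5-fold; with 1 array in each group the difference was not tested. The other detected UQCRH probe read -0.46 and 0.06, and the retrocopy UQCRHL -0.22 and 0.19, so the opposite signs were shared and the sizes were not.

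The median of the members' difference of bicarbonate differences was -0.12, with a median of -0.17 at high density and 0.03 at low density. The signs of the medians were opposite, the value at low density was close to that of all genes (0.03), and the difference was not tested.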

How the results depend on the processing

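With 1 array in each group no replicate could be left out, and no paired analysis was possible because each group holds a single array. No called value changed sign under the alternatives that gave it a value. UQCRH alone among the called genes had a second detected probe, and UQCR11 and UQCRB had means under 8. For density in control, 1 member was higher and 0 lower without background correction, 1 higher with equal medians, and the second-brightest probes of 17 members gave a median of -0.029 with 0 higher. For bicarbonate at high density, 1 member was lower without background correction, in the authors' deposited log2 values and with offset 50 (COX6B1 lost), and with the mean of probes (UQCRH lost) or the second-brightest probe; equal medians gave -0.44 and 15 lower. For bicarbonate at low density, equal medians gave 1 lower, detection p under 0.05 gave 2 higher, and the mean of probes and the second-brightest probe gave 0 higher. For density with bicarbonate, lower members numbered 1 without background correction, 6 with detection p under 0.05 and 1 among genes with a mean of at least 8; equal medians gave -0.27 with 0 higher and 8 lower, and the second-brightest probe gave 0 higher. For the difference of differences, 3 were lower without background correction and with the second-brightest probe, and 18 with equal medians (median -0.39). Equal medians moved the median of all genes to -0.14 and -0.11 for bicarbonate at high and low density and to -0.11 for density with bicarbonate. The cause was not tested, beyond that second probes exist for few genes. Of all called genes, 39.0% were higher with equal medians against 50.2% for density in control, 21.9% against 50.1% for bicarbonate at high density, 10.1% against 60.2% at low density and 38.3% against 48.9% for density with bicarbonate. Of 12 member values past 1.5-fold, 7 fell under it without background correction and 3 with equal medians.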
